A study of Mus musculus with 11 samples.

Results

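The genes described here are 35 genes of bile duct and other epithelial cells, measured in the livers of newborn mice in which Notch signalling was switched on. They were chosen by name from a list of cholangiocyte genes that leaves out keratins, claudins, cilium genes and the Sox and Onecut transcription factors, a rule that uses names alone, though the list was drawn up with earlier results of these data known. The list was found on the array through 54 of its 41174 distinct probes. Of the 35 genes, 29 could be tested, among 15940 tested genes and 21329 named genes in all.

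Cholangiocytes line the bile ducts, where they transport chloride, bicarbonate and water into bile and hold together as a polarised epithelium. They arise from liver progenitor cells that can also become hepatocytes, and Notch signalling in cells next to the portal vein is known to favour the duct fate. When a Notch receptor is cleaved, its intracellular part (NICD) enters the nucleus and joins the DNA-binding protein Rbpj to switch on target genes.

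Total liver RNA of 11 pups of a hybrid 129 x C57BL/6 background was hybridised to 1-colour Agilent arrays that cover the mouse genome. The mutants were double transgenic AFP-Cre/Rosa26-lsl-NICD pups, with 3 taken on the day of birth (day 0) and 3 on day 2. In them the alpha-fetoprotein promoter, active in fetal liver epithelium, drives the Cre recombinase that removes the stop cassette of the Rosa26 allele and so lets the cell make NICD. The controls were mono transgenic for Rosa26-lsl-NICD without Cre, with 2 taken on day 0 and 3 on day 2. All pups therefore carried the Rosa26 allele, and with no group carrying Cre alone the effects of Cre and of NICD cannot be told apart. In whole liver, a change in the share of duct cells and a change in RNA per cell cannot be told apart either.

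On these arrays the signal had a 75th percentile of 608 to 1302, and 63.3% to 68.6% of spots were well above background. Day 0 mutant replicate 3 stood apart, with 604 of 15726 genes at least 2-fold above and 470 at least 2-fold below all other arrays, while no other array exceeded 66 in either direction. Of the 29 tested genes, Elf3 was at least 2-fold above and Aqp1 at least 2-fold below all other arrays on it. Xist and Y-linked genes showed 3 females among the day 0 mutants and 2 males among the day 0 controls, so sex and genotype coincided on that day, and each group of day 2 held 1 male and 2 females. Array position on the slide coincided with group throughout. Precision is limited by how few arrays there are. Beyond the presence of both sexes in each day 2 group, only the labels say that the samples are separate pups. The p-values therefore measure the spread between these samples, which may be technical.

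Each gene was read by 60-base probes, and for Ehf the finding turns on which probe was read. The probes below each cross a splice junction on mouse build mm8. They are the Ehf probe read as the gene and one that gave another picture, the Epcam probe read as the gene, and probes of Spint1 and St14 that were measured beside the brighter ones read as those genes. All are written in lower case, 5′ to 3′, as on the array. The pair of Ehf probes lies on the minus strand at chr2:103080589-103084405 (the brightest over all arrays) and chr2:103074767-103074926, the Epcam probe on the plus strand at chr17:87557958-87558786, the second Spint1 probe on the plus strand at chr2:118939842-118940254, and the dimmer St14 probe on the minus strand at chr9:30850003-30852442.
Ehf brightest probe: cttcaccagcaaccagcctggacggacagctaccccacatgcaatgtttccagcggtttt
Ehf second probe: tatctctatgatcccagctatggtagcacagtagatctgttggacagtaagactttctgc
Epcam probe: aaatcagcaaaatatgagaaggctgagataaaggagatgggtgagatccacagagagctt
Spint1 second probe: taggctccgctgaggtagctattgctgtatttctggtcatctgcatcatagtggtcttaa
St14 dimmer probe: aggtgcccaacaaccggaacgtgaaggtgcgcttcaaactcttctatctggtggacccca

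The first comparison asked how the livers of 6 mutants differed from those of 5 controls, giving both days equal weight. Of the 29 tested genes, 13 were higher in mutants at an adjusted p under 0.05 (limma, Benjamini-Hochberg adjustment over all 15940 genes), against 8.64% of all tested genes. These were Spp1, Epcam, Cdh1, Clu, Ddr1, St14, Anxa13, Ttyh1, Atp1b1, Prom1, Alcam, Spint1 and Ap1m2. A further 3, Tspan8, Cd24a and Car2, were lower, against 6.69% of all tested genes, and 13 did not pass in either direction. The median log2 difference, mutant minus control, was 0.83 over the 29 genes and -0.05 over all tested genes. At day 2 alone 15 genes were higher (9.44% of all tested genes) and 3 were lower (6.35%), with a median of 1.15 against -0.10 over all genes. At day 0, with 2 controls, 5 were higher (1.51% of all tested genes) and 0 were lower (0.634%). The day 0 count was 2 without control replicate 1 and 1 without control replicate 2. With sex as a covariate 0 of the 29 passed at day 0, where Ddr1 had the smallest adjusted p (1.70 log2 units, adjusted p = 0.0764).

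**Figure D1:**
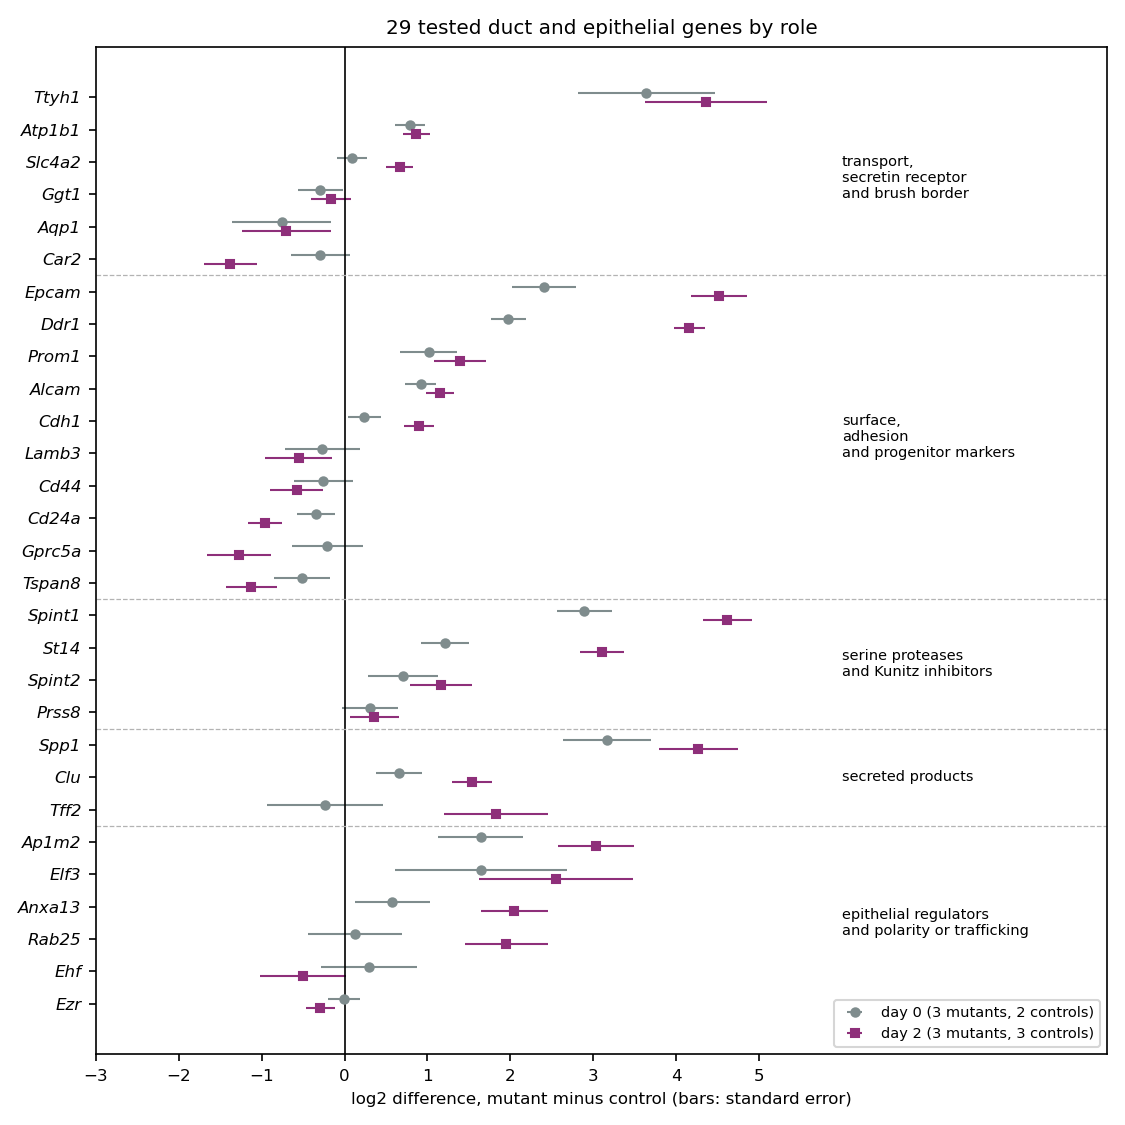
Log2 difference, mutant minus control, of each of the 29 tested genes at day 0 (grey circles) and day 2 (purple squares), with bars of 1 standard error from limma and the genes ordered by role. Ttyh1, Spint1, Epcam, Spp1 and Ddr1 lie farthest to the right on both days, and Car2 and Gprc5a farthest to the left at day 2. Tff2 was above background on no day 0 array.

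Among the secreted products, osteopontin and clusterin were higher in mutants. The levels here and below are log2 signals relative to the 75th percentile of the same array, so that 0 marks that percentile. Spp1, which encodes osteopontin, a secreted phosphoprotein made by duct cells, stood at 8.32, 7.30 and 6.29 in the day 0 mutants, against 4.22 and 4.05 in the day 0 controls. It stood at 7.90, 7.61 and 7.62 in the day 2 mutants, against 3.85, 3.81 and 2.67 in the day 2 controls. Every mutant array lay above every control array on both days, and the day 0 mutants spread most. Read at chromosome 5, 104681071 to 104681130 (mm8, as all probe positions here), Spp1 was 13.2-fold higher over both days, a log2 difference of 3.72 ± 0.36 (SE, adjusted p = 0.000188). Clu, which encodes the secreted chaperone clusterin, stood at 4.48, 3.64 and 4.61 in day 0 mutants, against 3.62 and 3.55 in day 0 controls. Its levels at day 2 were 6.43, 6.31 and 6.22 in mutants, against 4.96, 4.85 and 4.55 in controls. The groups were separate on both days, at day 0 by the narrow gap between mutant replicate 2 and the controls. The log2 difference was 1.10 ± 0.18 over both days (SE, adjusted p = 0.004), and at day 0 alone, with 0.66, Clu did not pass (adjusted p = 0.3). Tff2, a trefoil peptide of mucus-secreting cells, passed the filter only through the day 2 mutants, and its difference from controls is not read as a size. Its probe was well above background on all 3 day 2 mutants, on 1 of 3 day 2 controls and on 0 day 0 arrays. Mmp7, the protease matrilysin, was not tested: its probe was well above background on 1 of 3 day 0 mutants, 1 of 2 day 0 controls, 2 of 3 day 2 mutants and 1 of 3 day 2 controls.

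The surface and adhesion genes divided. Of 10 tested, Epcam, Ddr1, Prom1, Alcam and Cdh1 were higher in mutants over both days, Tspan8 and Cd24a were lower, and Lamb3, Cd44 and Gprc5a did not pass. The median of the 10 log2 differences was 0.08. Epcam, the adhesion molecule of simple epithelia and of liver progenitors, stood at 0.94, -0.02 and -0.15 in day 0 mutants, against -1.81 and -2.49 in day 0 controls. In day 2 mutants it stood at 1.29, 1.20 and 1.13, against -3.14, -2.90 and -3.89 in day 2 controls. The mutants lay above the controls by more than 1 log2 unit on every pair of arrays of the same day, and the day 2 mutants were the tightest group. Epcam differed by 3.46 ± 0.26 over both days (SE, adjusted p = 4.51e-05), 5.31-fold at day 0 and 22.9-fold at day 2.

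Ddr1, a receptor tyrosine kinase for collagen read at chromosome 17, 35289638 to 35289692, had the smallest adjusted p of the 29 genes. Its levels were 2.98, 2.61 and 2.95 in day 0 mutants, against 0.90 and 0.85 in day 0 controls. At day 2 they were 3.62, 4.13 and 3.65 in mutants, against -0.13, -0.41 and -0.54 in controls. The groups were far apart on both days, and the gap was wider at day 2. The log2 difference was 1.97 ± 0.21 at day 0 (SE, adjusted p = 0.00224) and 4.16 ± 0.19 at day 2 (SE, adjusted p = 1.11e-05).

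Prom1, a cholesterol-binding protein of membrane protrusions and a progenitor marker, stood at -0.14, -0.59 and 0.13 in day 0 mutants, against -0.63 and -1.80 in day 0 controls. It stood at 0.48, 0.61 and 0.24 in day 2 mutants, against -1.01, -0.64 and -1.19 in day 2 controls. The groups did not overlap, but at day 0 the lowest mutant and the highest control nearly met. The log2 difference was 1.20 ± 0.23 over both days (SE, adjusted p = 0.00808). A second Prom1 probe gave 1.18. Alcam, an immunoglobulin-family adhesion molecule, stood at 1.69, 1.45 and 2.09 in day 0 mutants, against 0.81 and 0.85 in day 0 controls. Its day 2 levels were 1.51, 1.52 and 1.64 in mutants, against 0.38, 0.48 and 0.35 in controls. All mutants lay above all controls, and the difference of 1.03 ± 0.13 over both days (SE, adjusted p = 0.000726) was of like size on either day, 0.92 and 1.15. At day 0 its adjusted p was 0.0411, and 0.0968 with the replicate block, so that call was lost. Cdh1, which encodes E-cadherin, the adhesion protein of epithelial junctions, had one of the smaller differences that passed, 0.57 ± 0.14 over both days (SE, adjusted p = 0.0217). Its groups overlapped at day 0 and were separate at day 2, where mutants averaged 3.91 ± 0.10 and controls 3.01 ± 0.19 (SD, n = 3 each).

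**Figure D2:**
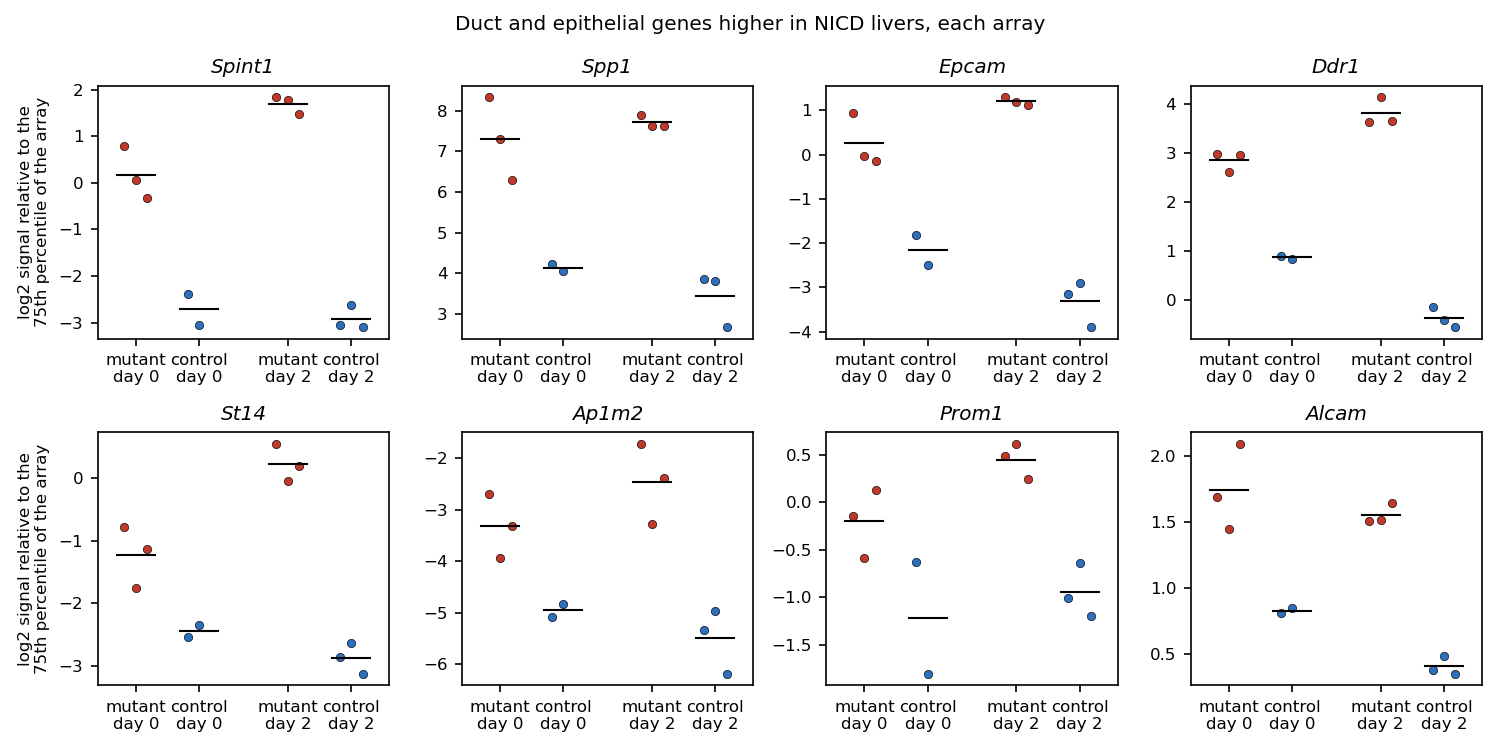
Log2 signal against the array's 75th percentile, for 8 genes that passed over both days, with one point per array and a line at each group mean; mutants are red and left of the controls of the same day in blue. Mutant arrays lie above all control arrays of their day in each of the 8 panels.

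The membrane serine proteases and their inhibitors form a small system in which matriptase (St14) and prostasin (Prss8) act at the epithelial surface and the Kunitz inhibitors Spint1 and Spint2 restrain them. Of the 4, St14 and Spint1 were higher in mutants over both days, and Spint2 and Prss8 did not pass. Spint1 stood at 0.80, 0.05 and -0.33 in day 0 mutants, against -2.39 and -3.04 in day 0 controls. At day 2 its levels were 1.83, 1.78 and 1.48 in mutants, against -3.05, -2.62 and -3.09 in controls. On both days the mutants lay well above the controls. The log2 difference was 3.75 ± 0.22 over both days (SE, adjusted p = 1.68e-05), which is 13.5-fold, and the second probe printed above gave 3.98.

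St14 stood at -0.79, -1.76 and -1.13 in day 0 mutants, against -2.54 and -2.34 in day 0 controls. It stood at 0.55, -0.05 and 0.19 in day 2 mutants, against -2.86, -2.64 and -3.13 in day 2 controls. No mutant array overlapped the controls of its day. The difference was 2.16 ± 0.20 over both days (SE, adjusted p = 0.000146) on its brighter probe. The dimmer probe printed above was well above background on all 3 day 2 mutants and on 0 other arrays, which was its only way past the filter, and it was at least 2.74-fold higher at day 2. Spint2 differed by 0.93 ± 0.28 (SE, adjusted p = 0.0533), and with the replicate block by 1.00 (adjusted p = 0.0113). It averaged 0.56 ± 0.70 in day 0 mutants (SD, n = 3) and -0.14 ± 0.74 in day 0 controls (SD, n = 2), so that the groups overlapped there, while at day 2 they were separate. Prss8 differed by 0.33 (adjusted p = 0.371) and overlapped on both days.

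Duct cells modify bile by moving ions and water, and the genes of that machinery were mixed. Of 6 tested, Ttyh1 and Atp1b1 were higher in mutants over both days, Car2 was lower, and Slc4a2, Ggt1 and Aqp1 did not pass. Ttyh1, a membrane protein of the tweety family read at chromosome 7, 3737817 to 3737876, had the largest difference of the 29 genes. It stood at -0.32, -1.48 and -2.13 in day 0 mutants, against -3.72 and -6.18 in day 0 controls. It stood at 1.61, 1.34 and 1.54 in day 2 mutants, against -2.44, -1.95 and -4.20 in day 2 controls. The controls were scattered and 1 of the 2 day 0 controls was not well above background, but no control reached a mutant of its day. The log2 difference was 4.0 ± 0.56 over both days (SE, adjusted p = 0.00153). At day 0 the 3.64 did not pass (adjusted p = 0.0615), and the 3.99 with the replicate block did (adjusted p = 0.0432). A second probe on the same strand gave 2.87 over both days. Another, placed on the opposite strand by the files, was well above background on all day 0 arrays and differed by -0.16 there. At day 2 it was well above background on 0 of 3 controls and at least 1.27-fold higher in mutants. Whether this probe reads the Ttyh1 transcript was not tested.

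Atp1b1, the beta subunit of the sodium and potassium pump, stood at 3.47, 3.03 and 3.21 in day 0 mutants, against 2.42 and 2.47 in day 0 controls. Its day 2 levels were 3.43, 3.44 and 3.59 in mutants, against 2.42, 2.84 and 2.60 in controls. All mutants were above all controls and the difference was modest, 0.83 ± 0.12 over both days (SE, adjusted p = 0.00202) or 1.77-fold. Slc4a2, the chloride and bicarbonate exchanger of the duct's apical membrane, passed only at day 2, with 0.67 ± 0.16 (SE, adjusted p = 0.0226), and its difference between days did not pass (0.58, adjusted p = 0.319). Ggt1, gamma-glutamyltransferase of the brush border, differed by -0.23 over both days and overlapped on both (adjusted p = 0.453).

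Aqp1, the water channel of duct cells, vessels and red blood cells, stood at 5.71, 5.42 and 3.32 in day 0 mutants, against 5.64 and 5.51 in day 0 controls. It stood at 5.97, 5.40 and 5.96 in day 2 mutants, against 6.85, 6.45 and 6.14 in day 2 controls. The low value of 3.32 belongs to the array that stood apart. At day 2 all mutants lay below all controls, but the difference of -0.73 ± 0.40 over both days did not pass (SE, adjusted p = 0.267).

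The 3 genes through which the duct cell moves chloride and bile acids and answers secretin, Cftr, Slc10a2 and Sctr, were near or below the detection limit. Cftr, the apical chloride channel, had 2 probes. The brighter stood at -6.80, -7.33 and -6.21 in day 0 mutants, against -6.92 and -6.56 in day 0 controls, and none of these arrays was well above background. It stood at -4.66, -6.46 and -3.86 in day 2 mutants, against -7.72, -7.83 and -7.42 in day 2 controls. It was well above background on 2 of the 3 day 2 mutants and on 0 controls. With the remaining day 2 mutant taken at its measured value, the day 2 mutants were at least 2.03-fold higher, with no test. Sctr, the secretin receptor, stood at -5.99, -8.16 and -6.15 in day 2 mutants, against -7.87, -7.83 and -8.24 in day 2 controls, and at -8.00, -8.23 and -7.76 in day 0 mutants, against -7.77 and -8.18 in day 0 controls. It was well above background on no array. Slc10a2, the apical sodium-dependent bile acid transporter, had 3 probes, of which 1 was well above background, on 1 day 0 control. The brightest Slc10a2 probe stood at -7.67, -8.54 and -7.29 in day 0 mutants, against -5.69 and -8.40 in day 0 controls. Its levels at day 2 were -6.99, -7.38 and -7.74 in mutants, against -8.22, -8.11 and -8.51 in controls, all below that limit.

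Among the regulators and the polarity and trafficking proteins, 2 of 6 tested were higher in mutants over both days, Ap1m2 and Anxa13. Ap1m2, a subunit of the clathrin adaptor that sorts proteins to the basolateral membrane of epithelia, stood at -2.69, -3.93 and -3.32 in day 0 mutants, against -5.08 and -4.83 in day 0 controls. It stood at -1.73, -3.28 and -2.38 in day 2 mutants, against -5.34, -4.98 and -6.18 in day 2 controls. The mutant arrays were dim but all above the controls. The difference was 2.34 ± 0.34 over both days (SE, adjusted p = 0.00202). Anxa13, an annexin of epithelial membranes, stood at -1.55, -1.13 and -1.75 in day 0 mutants, against -2.29 and -1.81 in day 0 controls. Its day 2 levels were 1.02, -0.78 and 0.22 in mutants, against -1.92, -1.56 and -2.21 in controls. The day 0 groups were only just separate and the day 2 mutants spread widely above their controls. The difference was 1.31 ± 0.30 over both days (SE, adjusted p = 0.0195), 0.57 at day 0 (adjusted p = 0.596) and 2.05 at day 2 (adjusted p = 0.00948).

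Rab25, a small GTPase of apical recycling, stood at -3.68, -3.81 and -4.55 in day 0 mutants, against -4.90 and -3.38 in day 0 controls. It stood at -2.27, -3.61 and -2.65 in day 2 mutants, against -5.10, -4.04 and -5.25 in day 2 controls. The groups overlapped at day 0 and were separate at day 2. Rab25 was higher at day 2, by 1.95 ± 0.50 (SE, adjusted p = 0.0292), and did not pass over both days (1.04, adjusted p = 0.0985). Ezr, which encodes ezrin, the linker of microvilli to actin, differed by -0.15 (adjusted p = 0.493) and overlapped on both days. Esrp1, an epithelial splicing regulator, was not tested: its brighter probe was well above background on 2 of 3 day 2 mutants and on 0 other arrays. With the remaining day 2 mutant taken at its measured value, it was at least 1.07-fold higher than in day 2 controls.

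The ETS-family factors Elf3 and Ehf, which act in epithelial differentiation, are described here after their values were seen, because one array or one probe decides them. Elf3 stood at -3.78, -4.20 and 0.12 in day 0 mutants, against -3.75 and -4.77 in day 0 controls. At day 2 it stood at -3.0, -2.76 and -2.87 in mutants, against -5.56, -5.23 and -5.49 in controls. The day 2 groups were tight and separate, and day 0 mutant replicate 3 alone was far above everything else. With all arrays Elf3 differed by 2.09 ± 0.70 over both days and did not pass (SE, adjusted p = 0.0749), and without that array it was 1.41 ± 0.20 and passed (SE, adjusted p = 0.00185).

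Ehf was read by 3 tested probes that did not agree. The brightest over all arrays stood at -4.02, -4.40 and -5.09 in day 0 mutants, against -5.08 and -4.51 in day 0 controls, and at -5.09, -5.64 and -5.38 in day 2 mutants, against -6.13, -3.82 and -4.67 in day 2 controls. The groups overlapped and the difference was -0.10 ± 0.39 over both days (SE, adjusted p = 0.896). The second probe stood at -5.03, -6.73 and -4.98 in day 0 mutants, against -6.62 and -7.60 in day 0 controls, and at -3.08, -3.86 and -3.41 in day 2 mutants, against -6.68, -7.26 and -8.32 in day 2 controls. It was well above background on all 3 day 2 mutants, on 2 of 3 day 0 mutants and on 0 controls, and its day 2 mutants were at least 5.93-fold higher. The third probe was well above background on all 3 day 2 mutants, on 1 of 3 day 0 mutants and on 0 controls, and at least 7.0-fold higher in mutants at day 2. Both probes passed the filter only through the day 2 mutants, the group in which they are high, so these folds are a description with no test.

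**Figure D3:**
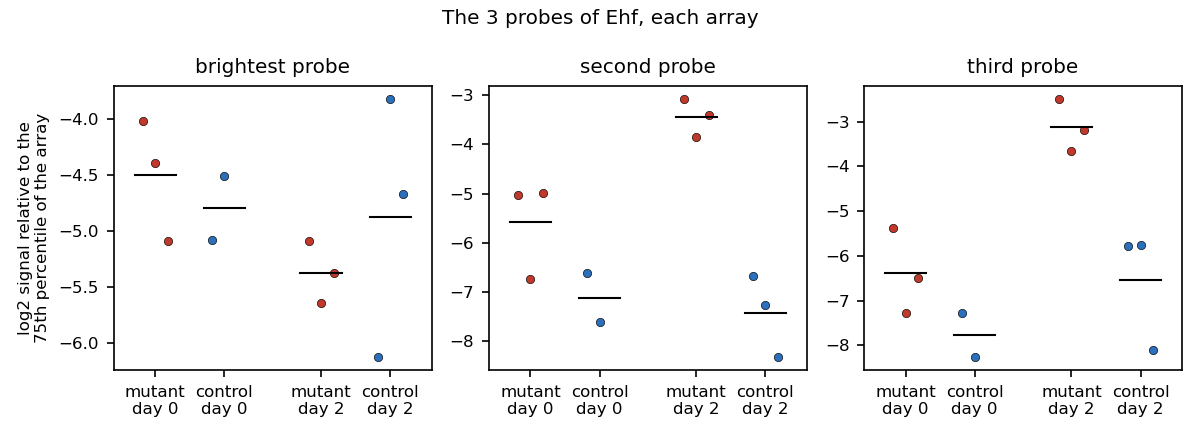
Log2 signal of the 3 Ehf probes against the array's 75th percentile, one panel per probe on its own scale, with one point per array (mutants red, controls blue) and a line at each group mean. The brightest probe shows overlapping groups, while in the other panels the 3 day 2 mutants lie above every other array.

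Of the 8 genes with several tested probes, Ehf and Gprc5a were those whose probes differed in direction. Gprc5a, an orphan receptor induced by retinoic acid, gave -0.74 on its brighter probe (adjusted p = 0.118) and 0.25 on its dimmer one. The dimmer probe ran from -5.34 to -2.59 over the 11 arrays, with its highest value on day 0 mutant replicate 3.

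The genes that were lower in mutants were Car2, Cd24a and Tspan8. Car2, carbonic anhydrase 2, stood at 7.30, 7.48 and 6.31 in day 0 mutants, against 7.39 and 7.25 in day 0 controls. It stood at 6.12, 5.50 and 6.09 in day 2 mutants, against 7.66, 7.19 and 7.0 in day 2 controls. The day 0 groups overlapped and the day 2 groups did not. Car2 was 1.79-fold lower over both days, a log2 difference of -0.84 ± 0.24 (SE, adjusted p = 0.0449), and -1.38 at day 2 (adjusted p = 0.0189). The other two are given by array after their values were seen. Cd24a, a small surface glycoprotein of progenitor and blood cells, stood at 6.41, 6.59 and 6.08 in day 0 mutants, against 6.74 and 6.67 in day 0 controls, and at 5.66, 5.20 and 5.54 in day 2 mutants, against 6.77, 6.32 and 6.19 in day 2 controls. It alone of the 29 had all mutants below all controls on both days, a smaller share than 6.91% over all tested genes. Its difference was -0.65 ± 0.15 (SE, adjusted p = 0.0217). Tspan8, a tetraspanin of epithelial membranes, stood at 1.06, 1.27 and 0.27 in day 0 mutants, against 1.67 and 1.08 in day 0 controls, and at 0.17, -0.44 and 0.08 in day 2 mutants, against 1.40, 1.01 and 0.78 in day 2 controls. Its groups were separate at day 2, and over both days it differed by -0.82 ± 0.23 (SE, adjusted p = 0.0408).

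With the replicate block Car2 (-0.77, adjusted p = 0.0651) and Tspan8 (-0.76, adjusted p = 0.0505) did not pass over both days, which left Cd24a alone. Without day 0 control replicate 1, day 0 control replicate 2 or day 2 mutant replicate 2, 0 of the 3 passed over both days. Cd24a alone passed when day 2 control replicate 1 or 2, day 0 mutant replicate 1 or day 2 mutant replicate 1 or 3 was left out. At day 2 alone the 3 became 0 without day 2 control replicate 1 or day 2 mutant replicate 2, and 1 without day 2 control replicate 2. Without day 0 mutant replicate 3, 5 genes were lower over both days and 5 at day 2, and over both days Cd44 and Lamb3 were the ones added. Lamb3, a laminin chain of epithelial basement membrane, differed by -0.41 with all arrays (adjusted p = 0.419) and -0.67 without that one. Cd44, the hyaluronan receptor, stood at 0.92, 1.22 and 2.23 in day 0 mutants, against 1.35 and 2.07 in day 0 controls. It stood at 1.31, 1.29 and 1.00 in day 2 mutants, against 1.80, 1.62 and 1.91 in day 2 controls. Cd44 overlapped at day 0 and lay below the controls on all 3 mutants at day 2. Its difference was -0.42 with all arrays (adjusted p = 0.292) and -0.61 without day 0 mutant replicate 3.

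The newborn mouse liver still makes blood, and Car2 and Cd24a are known to be made by cells of the red lineage as well as by ducts. Markers of that lineage were therefore measured beside the lower genes. Of 13 tested erythroid genes, 0 were higher and 6 were lower in mutants over both days, with a median log2 difference of -0.95. At day 2, 9 were lower, with a median of -1.38. At day 0, 0 of the 13 passed in either direction, with a median of -0.52. Their mean level per array ran from 2.91 to 3.76 in day 0 mutants, against 3.87 to 4.04 in day 0 controls, and from 1.77 to 2.43 in day 2 mutants, against 3.33 to 3.79 in day 2 controls. Gata1, the factor that drives red cell differentiation, differed by -1.06 and Nfe2, a globin regulator, by -0.83 over both days (adjusted p = 0.00307 and 0.0039). The part of blood-forming cells in the lower duct genes was not tested.

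**Figure D4:**
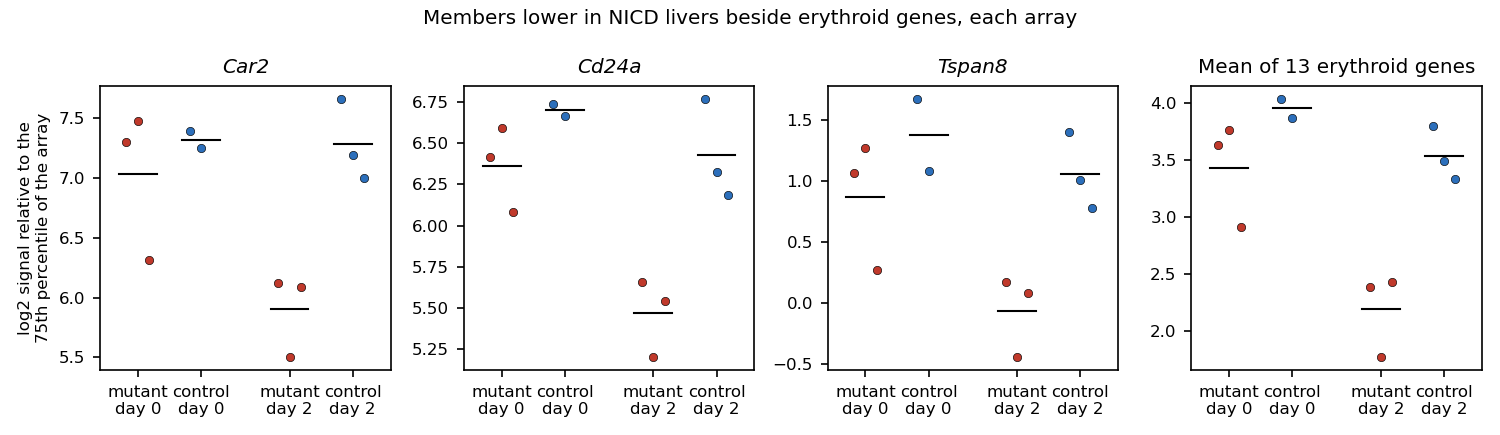
Log2 signal against the array's 75th percentile for Car2, Cd24a and Tspan8 and, at the right, the mean of 13 erythroid genes, with one point per array (mutants red, controls blue) and a line at each group mean. In all 4 panels the 3 day 2 mutants lie below the 3 day 2 controls.

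Counted by array, 12 of the 29 genes had every mutant above every control of its day on both days, where 7.28% of all tested genes did. They were the 13 higher genes less Cdh1. At day 0 alone 12 were separate upward and 1 downward (16.8% and 15.0% of all genes), and at day 2 alone 18 upward and 7 downward (20.7% and 24.6%). The 18 include Tff2, which passed the filter only through the day 2 mutants. The 7 downward at day 2 are close to the share over all genes. Slides 1 and 2 hold every group, and the median difference of the 29 genes was 1.00 within slide 1 and 0.42 within slide 2. On slide 2 at day 0 the lower genes Tspan8 and Car2 differed the other way, by 0.18 and 0.23.

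A second question was whether the genotype difference grew between birth and day 2. Of the 29 genes, Ddr1 alone passed the test of that difference, against 0.232% of all tested genes in that direction, and 0 passed in the other (0.0376%). Its genotype difference was larger at day 2 by 2.19 ± 0.28 log2 units (SE, adjusted p = 0.0241). With the replicate block the size was 2.15 and the adjusted p 0.076, and the call was also lost when any single array other than day 0 mutant replicate 1 or 3 was left out. Across 20 other settings it passed in 9, while the size stayed between 2.02 and 2.46. Among the genes with signal above background at day 0, the next in size were Epcam (2.11, adjusted p = 0.148), St14 (1.89, 0.0954), Rab25 (1.83, 0.317) and Spint1 (1.73, 0.159), none of which passed. The median of this quantity was 0.46 over the 29 genes and -0.04 over all genes.

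Within each genotype, day 2 was then set against day 0. In mutants 10 genes were higher at day 2 (9.03% of all tested genes) and 4 were lower (11%). Without day 2 mutant replicate 3 the higher genes were 5, and the lower ones were 1 without day 2 mutant replicate 2 and 2 without day 0 mutant replicate 2 or day 2 mutant replicate 1 or 3. In controls 2 were higher (5.14%) and 3 were lower (5.46%), and without either of the day 0 controls these counts were 0 and 0. Without day 2 control replicate 1 or 2 they were 0 and 1, and without day 0 mutant replicate 3 they were 3 and 6. The median change was 0.57 in mutants and -0.04 in controls. Sex also differed between the days, as day 0 controls were all male, day 0 mutants all female and each day 2 group mixed. With sex as a covariate Ddr1 alone passed in controls, lower at day 2. Of the next 4 genes, Clu and Prss8 kept their calls in mutants with that covariate, and Ezr and Ggt1 lost theirs. Clu rose with age in both genotypes, by 2.08 ± 0.24 in mutants (SE, adjusted p = 0.00149) and 1.20 ± 0.27 in controls (SE, adjusted p = 0.0268). Ezr did so as well, by 0.57 and 0.85. Ggt1 and Prss8 fell in both, Prss8 by 1.46 in mutants and 1.51 in controls, and Ggt1 by 0.95 and 1.08, the last of which did not pass with the replicate block (adjusted p = 0.0536).

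Ddr1 rose in mutants, by 0.95 ± 0.19 (SE, adjusted p = 0.0107), and fell in controls, by 1.24 ± 0.21 (SE, adjusted p = 0.00951). Cdh1, St14, Anxa13, Slc4a2, Ttyh1 and Spint1 rose with age in mutants and did not pass in controls, which does not show that the genotypes differed. With sex as a covariate Anxa13 and Slc4a2 did not pass in mutants either. Ttyh1 changed by 2.80 in mutants (adjusted p = 0.0295) and by 2.09 in controls (adjusted p = 0.133). Its changes differed between the genotypes by 0.72 (adjusted p = 0.825). Spint1 changed by 1.52 in mutants (adjusted p = 0.0102) and -0.21 in controls (adjusted p = 0.708), and St14 by 1.46 (adjusted p = 0.00792) and -0.44 (adjusted p = 0.36). Tff2 is also counted among the genes higher with age in mutants, but its probe passed the filter only through the day 2 mutants, so that call is not read as a result. It was at least 2.82-fold higher at day 2 than at day 0 in mutants, where 0 of 3 day 0 arrays were well above background. Cd24a and Car2 fell in mutants, by 0.89 and 1.13, and differed by -0.28 and -0.04 in controls, where they did not pass. The call of Car2 in mutants was lost with sex as a covariate. Spp1 did not pass for age in either genotype, with 0.41 in mutants (adjusted p = 0.556) and -0.69 in controls (adjusted p = 0.425). Apart from Ddr1, no gene showed a genotype difference in its age change that passed.

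**Figure D5:**
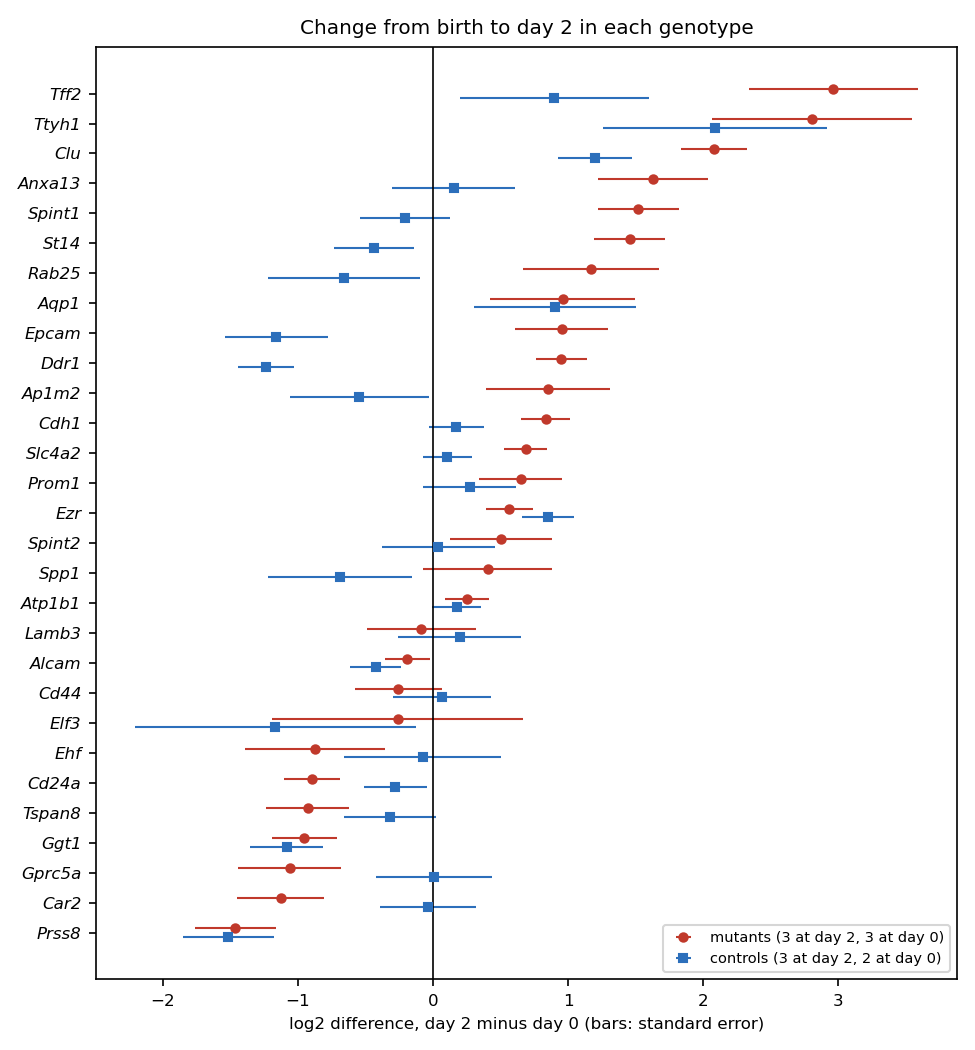
Log2 difference, day 2 minus day 0, of the 29 tested genes in mutants (red circles) and controls (blue squares), with bars of 1 standard error from limma, ordered by the change in mutants. Clu and Ezr lie to the right in both genotypes, Ggt1 and Prss8 to the left in both, and Ddr1 to the right in mutants and to the left in controls. Tff2, at the top, was above background on no day 0 array.

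Other genes of the duct cell were set beside these. Of 22 tested keratins, claudins, cilium genes and duct transcription factors, 17 were higher and 1 was lower over both days, with a median log2 difference of 1.55, against 0.83 for the 29 genes. Among them Sox9, a transcription factor of duct cells, differed by 4.30, and the keratins Krt7 and Krt19 by 0.77 and 1.53 (adjusted p of 0.0143 and 0.03). Krt7 differed by -0.27 at day 0 and 1.82 at day 2. Of 10 Notch target genes 8 were higher, with a median of 2.30, led by Nrarp at 3.79 and Hey1 at 3.1, and Hes1 differed by 1.78. The probe of Notch1, the source of NICD, differed by 0.20 (adjusted p = 0.753), and it was not tested whether that probe reads the transgene.

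Markers of other cell types were measured as well. Of 18 hepatocyte genes, 10 were lower and 0 were higher over both days, with a median of -1.07, and Tat and Asgr1 differed by -2.21 and -1.27. Their mean level per array ran from 2.10 to 3.08 in day 0 mutants, against 4.05 to 4.42 in day 0 controls, and from 3.09 to 3.95 in day 2 mutants, against 4.63 to 4.78 in day 2 controls. Of 14 genes of mesothelium and mesenchyme, 1 was higher over both days, Vim by 0.99, with a median of 0.19. At day 2 Vim and Des were higher, by 1.42 and 0.69, and the median was 0.73. Their mean level per array ran from 0.83 to 1.38 in day 0 mutants, against 1.35 to 1.38 in day 0 controls, and from 0.65 to 1.35 in day 2 mutants, against -0.15 to 0.41 in day 2 controls, where the groups did not overlap. Of 9 macrophage genes 2 were lower over both days, Csf1r by -0.61 and Adgre1 by -0.64. Of 9 genes of pancreatic and intestinal epithelium, Vil1 (1.79) and Pdx1 (2.18) were higher and the amylase gene Amy2a5 (-1.33) was lower. The part of these cell types in the duct gene differences was not tested.

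The promoters of these genes were searched for the core site of Rbpj, the DNA partner of NICD, and for sites of Grainyhead-like factors, which act in epithelia. RefSeq promoter windows on GRCm38.p6, from 250 bases before to 50 bases after the start, were at hand for 23 of the 35 genes, in 34 windows. TGGGAA, read on both strands, was present in 11 of the 34 windows, from 10 genes, and in 25.6% of 32851 windows of all genes. Of the genes that were higher over both days, 9 had a window, in 14 windows. This motif was in 2 of the 14, from Ddr1 and Prom1, whose other windows lacked it. AACCGGTT, its own reverse, was in 0 of the 34 windows and in 0.146% of all. AACNNGTT, the same site with free middle bases, was in 4 of 34 and in 4.2% of all. The 2 windows of higher genes with TGGGAA are printed 5′ to 3′ along the gene, both on the minus strand, with capitals for the motifs. The Ddr1 window lies at chr17:35701995-35702294, with TGGGAA starting 47 bases before the annotated start used for that window. Prom1 lies at chr5:44101687-44101986, with TGGGAA on the opposite strand 116 bases before the start, overlapping an AACNNGTT match 122 bases before it.
Ddr1 promoter: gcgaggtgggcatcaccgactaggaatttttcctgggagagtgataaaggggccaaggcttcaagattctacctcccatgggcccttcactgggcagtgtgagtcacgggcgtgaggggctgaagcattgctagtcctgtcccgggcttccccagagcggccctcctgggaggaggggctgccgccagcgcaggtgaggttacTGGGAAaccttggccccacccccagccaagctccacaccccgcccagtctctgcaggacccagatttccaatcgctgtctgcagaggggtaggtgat
Prom1 promoter: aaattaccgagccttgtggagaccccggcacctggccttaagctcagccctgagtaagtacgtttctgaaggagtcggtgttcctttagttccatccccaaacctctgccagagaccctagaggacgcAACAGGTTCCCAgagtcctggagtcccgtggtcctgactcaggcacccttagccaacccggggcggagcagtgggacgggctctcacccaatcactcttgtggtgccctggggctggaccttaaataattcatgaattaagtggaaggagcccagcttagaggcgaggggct
A match of letters is a description of these windows and not a bound site. Muc1, the membrane mucin, is the remaining gene of the 35. It was not tested, as its brighter probe was well above background on 1 of 3 mutants on either day and on 0 controls, with means of -6.54 in day 0 mutants and -6.73 in day 0 controls, and of -6.36 in day 2 mutants and -6.81 in day 2 controls. The highest value of that probe on any array, -5.609, was on day 2 control replicate 2.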

How the data were processed

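Liver RNA of 11 pups was measured with 1 array per pup, grouped by the labels' genotype and age. Per the file headers, the deposited processed signal is an intensity that Feature Extraction (version 9.5.3.1, design 014868) background-subtracted within each array and did not scale between arrays. An alternative set of log2 values was deposited by the authors and came from RMA, per the submitters' processing notes, with settings not given in the sources used here.

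For each array the 75th percentile of non-control spots was subtracted from the signal on the log2 scale, without outlier-marked spots and with repeated spots averaged. The filter kept 27146 probes that, in 1 group or more, cleared background on all arrays. A gene was read from its brightest tested probe. Names came through RefSeq (GRCm38.p6), positions are those of the files (mm8), and 6323 of 41174 probes had no name. The fit of 18233 features used limma 3.58.1 (R 4.3.3, data.table version 1.17.8) with 4 group coefficients and 7 residual and 2.38 prior degrees of freedom. Adjustment was by Benjamini-Hochberg over 15940 named genes, with a threshold of 0.05. A fold "at least" sets the dim group no lower than the dimmest signal above background on each of its arrays. The other group enters at its measured mean, which for Cftr and Esrp1 includes an array not above background.

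The genes and all other lists were chosen with earlier results of these data known. Array levels are given for up to 14 passing genes with the largest difference over both days, and for Cftr, Slc10a2, Sctr, Prom1, Cd44 and Aqp1. From the other lists come up to 4 genes with the smallest p over both days, and Notch1, Nrarp, Hes1, Sox9, Krt7 and Krt19. One gene that this rule names is not reported here.

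Replicate numbers are slide numbers. Between day 2 arrays that share a number, deviations from the group means correlated at 0.281, 0.226 and 0.258, and between other day 2 pairs at -0.213 to -0.0513. At day 0 the shared numbers gave 0.0608 and 0.0911. The main fit has no slide term, so its comparisons, those at day 2 included, do not use this pairing. An alternative fit of all arrays took the slide as a replicate block, and its values are given where a call changed.

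Alternatives were quantile scaling, normexp background correction (offset 50), the RMA values, other filters on dim probes, the mean of a gene's probes, the replicate block, sex as a covariate, an intensity trend in the spread, a fit of only the arrays compared, and leaving out each array in turn. Values within slides were added after seeing the data. Tested on simulated data for 15983 genes, the steps recovered 56 of 100 genes changed by 1 log2 unit over both days and 88 of 100 changed by 2, with 7 unchanged genes called. At day 0 the recovered genes were 24 and 67 of 100, and at day 2 they were 36 and 77. The simulated noise was independent between arrays, without the shared slide deviations seen here. Only 100 genes were changed at each size, whereas 8.64% and 6.69% of all tested genes were called higher and lower over both days. These recovered counts therefore hold for the simulated setting and need not hold for these data.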

Additional observations from a re-analysis of the deposited data

Results flagged for a closer look

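Ddr1 stood out because its genotype difference was not the same on both days, larger at day 2 than at day 0 by 2.19 ± 0.28 log2 units (SE, adjusted p = 0.0241, limma). Of 20 other settings 9 kept this call, with adjusted p from 0.0132 to 0.124. All 3 mutants lay above all controls on either day.

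Signals also came from 4 probes that were too dim to be tested and were well above background on mutant arrays and on no control array. The brighter probe of Cftr, the chloride channel, was so on 2 arrays, both day 2 mutants. The brighter probe of Esrp1, the splicing regulator, was so on 2 arrays, again day 2 mutants. The brighter probe of Muc1, the membrane mucin, was so on 2 arrays, 1 mutant of each day. The highest Muc1 value was nevertheless on a control, -5.609 on day 2 control replicate 2, against -5.615 on the highest mutant. A dim probe of Ttyh1, beside its brighter ones, was so on 2 arrays, both day 2 mutants.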

How the results depend on the processing

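The 13 genes higher over both days came to between 10 and 14 under the other settings that kept all arrays. Alcam, Ap1m2, Atp1b1, Clu, Ddr1, Epcam, Spint1, Spp1, St14 and Ttyh1 passed in all 20 other settings, those that left out an array included. The 3 lower ones were 1 with quantile scaling, 1 with no filter on dim probes, 1 with the replicate block and 0 with sex as a covariate. At day 0 the 5 higher genes were 0 with sex as a covariate and 1 (Ddr1) when only the day 0 arrays were fitted. At day 2 the 3 lower genes were 1 with quantile scaling. The test between days called 2 genes on the mean of a gene's probes, 0 with the replicate block and 0 with sex as a covariate. With age, 6 genes were higher in mutants when only their arrays were fitted and 2 lower with sex as a covariate. In controls 0 were higher with quantile scaling, 1 with the RMA table and 0 with sex as a covariate, and 1 was lower with sex as a covariate. The replicate block ended or made no other call than those given beside the results, Spint2 at day 2 (1.17, adjusted p = 0.0174) and, with age in mutants, Epcam (0.95, adjusted p = 0.0471) and Tspan8 (-0.93, adjusted p = 0.0496).

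Leaving out each array in turn gave 11 to 16 genes higher and 0 to 5 lower over both days, 1 to 7 higher at day 0, and 12 to 17 higher and 0 to 5 lower at day 2. The test between days gave 0 to 2. With age, 5 to 10 genes were higher and 1 to 5 lower in mutants, and 0 to 3 higher and 0 to 6 lower in controls. Ehf, read from its brightest probe, went to 1.68 on the mean of its probes, a size that is not read because 2 of the 3 were above background on 0 controls, and to 0.079 with sex as a covariate, and ranged from -0.42 to 0.16 over the arrays left out. The median over the 29 genes was 0.58 with normexp. What sets these differences between settings was not tested. Signal over background limits the rest: 6 of the 35 genes were too dim to test, and 8 of the 54 probes were well above background on no array.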
